A study of Mus musculus with 11 samples.

Results

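The Schlafen genes measured here are 7 genes of the mouse Schlafen cluster on chromosome 11, namely Slfn1, Slfn2, Slfn3, Slfn4, Slfn5, Slfn8 and Slfn9. They were taken by name, not by their values, and all 7 were found among the 52636 genes listed for each fetal liver. All 7 were also among the 17243 genes that passed the filter on low counts. RNA sequencing had been done on 11 untreated livers at E15.5 (an embryonic stage), with 1 library per liver. The 3 WT livers carried no targeted allele, and the 2 livers labelled Tnfr1ko lacked Tnfr1, the gene for TNF receptor 1 (Tnfrsf1a). The 3 livers labelled Casp8_Mlkl_dko lacked Casp8, which encodes the apoptotic protease caspase-8, and Mlkl, which encodes the executioner of necroptosis. The 3 livers labelled Casp8_Tnfr1_dko lacked Casp8 and Tnfr1. They are called Tnfr1-/-, Casp8-/- Mlkl-/- and Casp8-/- Tnfr1-/- livers below. All were germline alleles on a C57BL/6 N background, so every cell of the liver carried them. The study used the sequencing to ask whether genes induced by interferon were raised in Casp8-/- Tnfr1-/- fetal livers.

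Schlafen proteins are grouped by length. The short ones (Slfn1 and Slfn2) hold the core domain that all members share, the intermediate ones (Slfn3 and Slfn4) add a linker region, and the long ones (Slfn5, Slfn8 and Slfn9) also carry a helicase-like domain. The family is best known from T cells and myeloid cells, where members restrain growth or keep cells quiescent, and several members are induced by type I interferon or cut transfer RNA.

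The genes lie within 263806 bases of GRCm38, from Slfn5 (chr11:82951349-82964840, plus strand) to Slfn3 (chr11:83191330-83215154, plus strand). In between come Slfn9 (chr11:82978390-82991830, minus strand), Slfn8 (chr11:83002158-83020810, minus strand), Slfn2 (chr11:83065112-83070678, plus strand), Slfn1 (chr11:83116849-83122670, plus strand) and Slfn4 (chr11:83175186-83190216, plus strand). Their identifiers are ENSMUSG00000078763 (Slfn1), ENSMUSG00000072620 (Slfn2), ENSMUSG00000018986 (Slfn3), ENSMUSG00000000204 (Slfn4), ENSMUSG00000054404 (Slfn5), ENSMUSG00000035208 (Slfn8) and ENSMUSG00000069793 (Slfn9). All 7 are annotated as protein coding.

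The promoters of Slfn8 and Slfn9 are shown first because these adjacent long genes have alike promoters and changed by different amounts. Each line gives the 250 bases before the RefSeq gene start (GRCm38.p6), read 5′ to 3′ on the gene's strand. The capitals mark the core of the interferon-stimulated response element, searched on both strands as a G followed by AAANNGAAA. Both matches are on the reverse strand.
Slfn8 promoter, chr11:83020811-83021060 (-): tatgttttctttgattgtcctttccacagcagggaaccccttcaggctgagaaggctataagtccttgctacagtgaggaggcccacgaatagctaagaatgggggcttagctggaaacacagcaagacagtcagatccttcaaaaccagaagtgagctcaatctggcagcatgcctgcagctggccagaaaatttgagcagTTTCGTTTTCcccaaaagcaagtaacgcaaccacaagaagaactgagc
Slfn9 promoter, chr11:82991831-82992080 (-): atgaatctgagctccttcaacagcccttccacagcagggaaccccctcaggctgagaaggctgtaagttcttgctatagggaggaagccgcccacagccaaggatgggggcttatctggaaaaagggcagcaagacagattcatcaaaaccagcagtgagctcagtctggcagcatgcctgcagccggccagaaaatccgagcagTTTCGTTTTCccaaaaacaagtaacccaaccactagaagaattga

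The 2 windows were 80.2% identical over an alignment with gaps, and both held the same 10 letters, 48 to 39 bases before the start of Slfn8 and 45 to 36 bases before that of Slfn9. Of all 32851 RefSeq promoter windows of this length, 2.98% held the core. The window of Slfn5 held it as well, but this RefSeq start lies inside the longer gene model of GENCODE, so its window is not printed. Promoters of Slfn1, Slfn4 and Slfn3 follow, because the first pair changed most and Slfn3, adjacent to Slfn4, changed little. Capitals there mark the shorter letters AAANNGAAA, which every match of the core also contains and which here stand without the G.
Slfn1 promoter, chr11:83116570-83116819 (+): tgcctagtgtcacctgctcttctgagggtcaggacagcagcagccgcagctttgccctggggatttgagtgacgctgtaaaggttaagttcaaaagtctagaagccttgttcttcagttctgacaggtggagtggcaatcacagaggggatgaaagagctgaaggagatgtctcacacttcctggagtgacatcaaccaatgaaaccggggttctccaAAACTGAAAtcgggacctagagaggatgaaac
Slfn4 promoter, chr11:83174936-83175185 (+): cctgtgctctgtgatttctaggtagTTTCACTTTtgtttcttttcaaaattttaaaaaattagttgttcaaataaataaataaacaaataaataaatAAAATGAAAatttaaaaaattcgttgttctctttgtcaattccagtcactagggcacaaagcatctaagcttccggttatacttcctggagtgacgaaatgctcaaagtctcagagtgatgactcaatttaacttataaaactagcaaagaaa
Slfn3 promoter, chr11:83191080-83191329 (+): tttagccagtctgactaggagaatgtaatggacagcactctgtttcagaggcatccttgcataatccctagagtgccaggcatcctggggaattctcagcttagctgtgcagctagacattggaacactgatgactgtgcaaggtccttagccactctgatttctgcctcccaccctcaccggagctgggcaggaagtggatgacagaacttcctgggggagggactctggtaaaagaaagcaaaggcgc

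The shorter letters were found in 9.37% of all windows. They occurred once in the Slfn1 window and on both strands of the Slfn4 window, at different places. The windows of Slfn3 and Slfn2 held neither, and none of the 7 genes' windows held TTCNNNGAA, the gamma-activated sequence, which 7.02% of all windows held. Promoters of Slfn3 and Slfn4 were 47.7% identical. A match describes letters in a window and does not show that a factor binds there.

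Library totals ranged from 23129212 to 35819339 counts on exons. Of the 11 livers, 2 stood apart from the rest, namely Casp8-/- Tnfr1-/- replicate 3 and Casp8-/- Mlkl-/- replicate 1. In these the 10 most abundant genes took 22.5% and 24.0% of counts, against 11.7% to 15.2% elsewhere, and their TMM scaling factors were 0.758 and 0.812, against 1.01 to 1.09. The first also held the summed 10 striated muscle markers at 1519 CPM (counts scaled to the TMM-adjusted size of each library), against 20.5 to 44.8 CPM in all other livers. Calls that changed without either liver are given beside the results below. The targeted genes gave a partial check of the labels. Casp8 measured 7.82 to 10.2 CPM in Casp8-/- Mlkl-/- livers and 11.5 to 21.9 CPM in Casp8-/- Tnfr1-/- livers, below the 27.7 to 33.9 CPM of the others, and Mlkl was at 0.730 to 1.22 CPM in Casp8-/- Mlkl-/- livers and at least 3.68 CPM elsewhere. Tnfrsf1a was not lower in the livers labelled Tnfr1ko (49.8 and 50.5 CPM) than in WT livers (47.1 to 53.4 CPM) and was higher in those labelled Casp8_Tnfr1_dko (76.0 to 425 CPM), so a count over all its exons does not check that label. Hepatocyte and erythroid markers, of the main cell types of a fetal liver, were abundant in all 11 livers (sums of 53860 to 237906 and of 24319 to 74450 CPM), with the highest sums in Casp8-/- Mlkl-/- replicate 1 and Casp8-/- Tnfr1-/- replicate 3, respectively.

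In Casp8-/- Tnfr1-/- livers, 5 of the 7 Schlafen genes (Slfn1, Slfn2, Slfn4, Slfn5 and Slfn8) rose against WT livers, by 6.30-fold for Slfn2 to 226-fold for Slfn4. The same 5 rose against Tnfr1-/- livers, and 3 of them (Slfn1, Slfn2 and Slfn8) against Casp8-/- Mlkl-/- livers. Slfn3 and Slfn9 did not pass the test in any comparison. A call means an adjusted p under 0.05 in the quasi-likelihood test of edgeR, adjusted after Benjamini and Hochberg over all genes tested. The share of all genes called higher was 5.10% against WT, 2.05% against Tnfr1-/- and 1.54% against Casp8-/- Mlkl-/- livers, and no Schlafen gene was called lower, where the shares were 0.702%, 0.122% and 0.116%. The median log2 fold change of the 7 genes was 2.86, 2.72 and 1.80 in the 3 comparisons, against -0.0015, -0.014 and -0.033 over all genes tested. Since the same Casp8-/- Tnfr1-/- livers enter all 3 comparisons, these counts are not independent of each other.

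**Figure D1:**
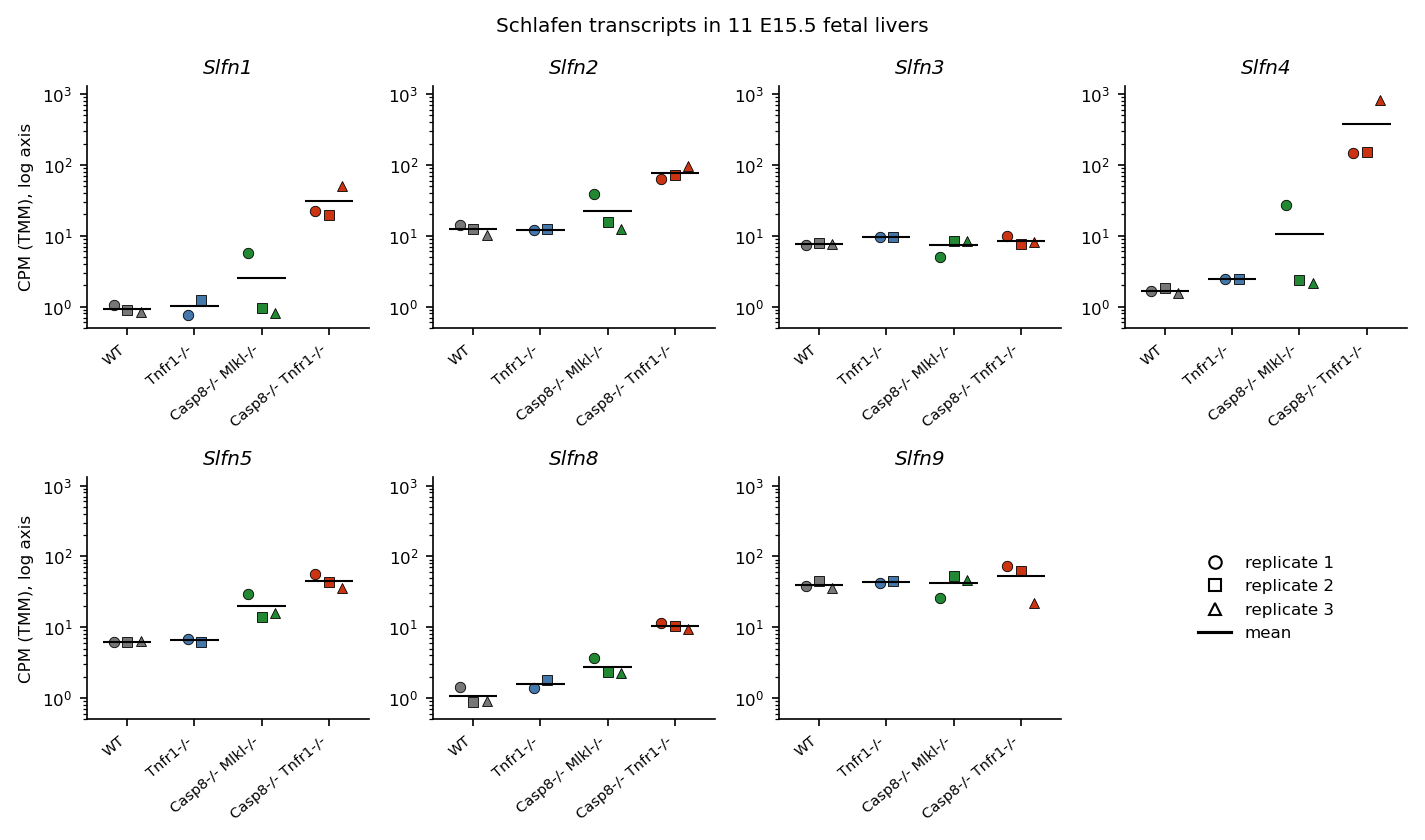
Level of each Schlafen gene in each of the 11 livers, as CPM after TMM scaling on a log axis, by genotype. Symbols mark the replicate and bars the group mean; Slfn1, Slfn2, Slfn4, Slfn5 and Slfn8 sit above all other livers in the 3 Casp8-/- Tnfr1-/- livers, whereas Slfn3 and Slfn9 overlap.

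Of the short genes, Slfn1, named for the growth arrest it causes in T cells, had low counts outside the Casp8-/- Tnfr1-/- livers (21 to 143). It measured 1.04, 0.880 and 0.828 CPM in WT livers (21 to 27 counts), 0.766 and 1.25 CPM in Tnfr1-/- livers, 5.80, 0.959 and 0.803 CPM in Casp8-/- Mlkl-/- livers and 22.1, 19.8 and 49.9 CPM in Casp8-/- Tnfr1-/- livers. All 3 Casp8-/- Tnfr1-/- livers were above the other 8, and Casp8-/- Mlkl-/- replicate 1 was the highest of those 8. The log2 fold change was 5.05 ± 0.795 (SE) against WT (adjusted p = 0.00650, edgeR), 4.93 ± 0.938 against Tnfr1-/- (adjusted p = 0.0273, edgeR) and 3.61 ± 0.730 against Casp8-/- Mlkl-/- livers (adjusted p = 0.0430, edgeR).

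Slfn2, which keeps T cells and monocytes quiescent, was the most abundant member per length in WT livers. It measured 14.1, 12.3 and 10.4 CPM in WT, 12.0 and 12.3 CPM in Tnfr1-/-, 38.4, 15.49 and 12.5 CPM in Casp8-/- Mlkl-/- and 63.1, 71.1 and 97.6 CPM in Casp8-/- Tnfr1-/- livers. The last group did not overlap with any other liver, and the Casp8-/- Mlkl-/- group was again led by replicate 1. Its log2 fold change was 2.66 ± 0.393 against WT (adjusted p = 0.00496, edgeR), 2.67 ± 0.461 against Tnfr1-/- (adjusted p = 0.0176, edgeR) and 1.80 ± 0.380 against Casp8-/- Mlkl-/- livers (adjusted p = 0.0491, edgeR).

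The intermediate genes Slfn3 and Slfn4 lie next to each other and stood at opposite ends of the family. Slfn4, a gene of myeloid cells that is regulated during macrophage activation, measured 1.65, 1.80 and 1.54 CPM in WT, 2.46 and 2.43 CPM in Tnfr1-/-, 27.1, 2.38 and 2.14 CPM in Casp8-/- Mlkl-/- and 149, 151 and 833 CPM in Casp8-/- Tnfr1-/- livers. Replicates 1 and 2 of the last group lay close together and replicate 3 far above them, while Casp8-/- Mlkl-/- replicate 1 stood far above the other livers of its group. The log2 fold change was 7.82 ± 1.28 against WT (adjusted p = 0.00773, edgeR), 7.27 ± 1.49 against Tnfr1-/- (adjusted p = 0.0373, edgeR) and 5.17 ± 1.11 against Casp8-/- Mlkl-/- livers, where it was not called (adjusted p = 0.0543, edgeR). Without Casp8-/- Tnfr1-/- replicate 3 it was 6.50 against WT, 5.94 against Tnfr1-/- and 3.85 against Casp8-/- Mlkl-/- livers. Without both livers that stood apart, which was chosen after seeing the data, it was 6.51, 5.95 and 6.05, with a call in all 3 comparisons.

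Slfn3, which is linked to the differentiation of gut epithelium, showed no such rise. It measured 7.49, 7.92 and 7.57 CPM in WT, 9.60 and 9.61 CPM in Tnfr1-/-, 5.03, 8.54 and 8.48 CPM in Casp8-/- Mlkl-/- and 9.88, 7.68 and 8.03 CPM in Casp8-/- Tnfr1-/- livers. All groups overlapped or lay close to each other, with Casp8-/- Mlkl-/- replicate 1 the lowest liver. The log2 fold change of Slfn3 was 0.16 against WT (95% interval -0.34 to 0.65), -0.17 against Tnfr1-/- (-0.72 to 0.38) and 0.21 against Casp8-/- Mlkl-/- livers (-0.28 to 0.71). Intervals of this width exclude a change of 1 on the log2 scale in either direction, which is smaller than that of any called member against WT. Slfn3 and Slfn4 share sequence, since 15.99% of the 50-base stretches of Slfn3 transcripts, and 11.3% of those of Slfn4, also occur in another gene. For both, the single gene that shared the largest number was the other of this pair, with 252 stretches in common. The study used uniquely mapped reads, and how such stretches were counted was not tested.

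**Figure D2:**
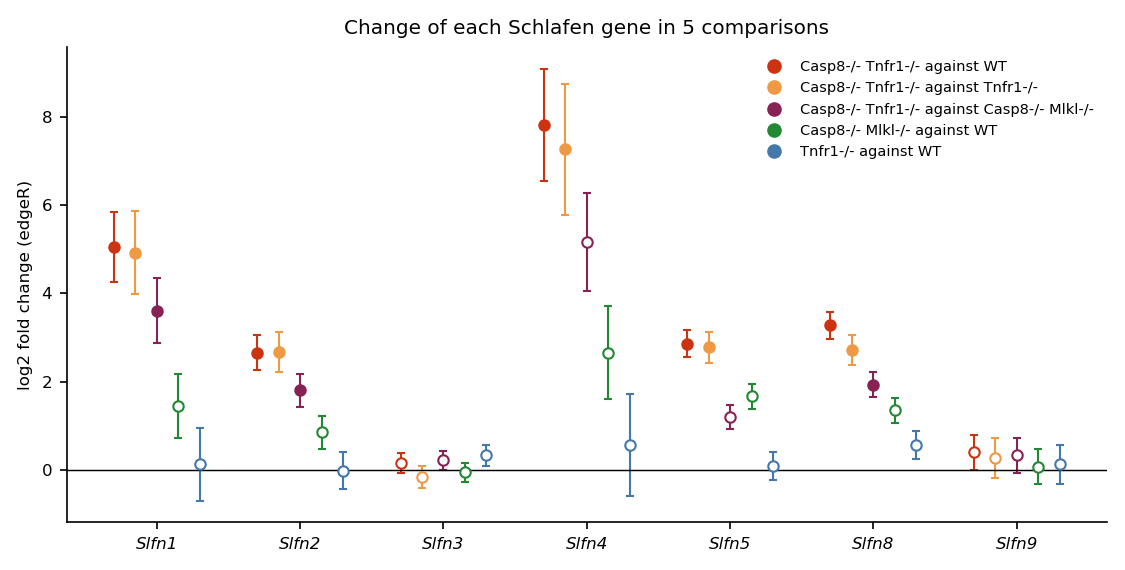
Log2 fold change (edgeR) of each Schlafen gene in 5 comparisons, with bars for the standard error; filled points passed an adjusted p of 0.05 and open points did not. Slfn4 changed most (7.82 against WT), followed by Slfn1 (5.05), and Slfn3 and Slfn9 lie near 0 in every comparison.

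Among the long genes, Slfn5, a nuclear protein induced by type I interferon, had the smallest spread within WT livers. It measured 6.18, 6.12 and 6.35 CPM there, 6.89 and 6.27 CPM in Tnfr1-/-, 29.7, 13.9 and 15.6 CPM in Casp8-/- Mlkl-/- and 55.8, 43.7 and 36.1 CPM in Casp8-/- Tnfr1-/- livers. The order was the same in every replicate, with all Casp8-/- Mlkl-/- livers above the WT and Tnfr1-/- livers and all Casp8-/- Tnfr1-/- livers above those. The log2 fold change was 2.86 ± 0.298 against WT (adjusted p = 0.000753, edgeR), 2.78 ± 0.348 against Tnfr1-/- (adjusted p = 0.00334, edgeR) and 1.20 ± 0.279 against Casp8-/- Mlkl-/- livers, which missed the threshold (adjusted p = 0.0724, edgeR). The antisense gene Slfn5os overlaps exons of Slfn5 on the opposite strand over 559 bases and was at 0 counts in all 11 livers.

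Slfn8, a long member expressed in immune cells, had the smallest p of the family against WT livers. It measured 1.42, 0.880 and 0.907 CPM in WT (21 to 37 counts), 1.37 and 1.79 CPM in Tnfr1-/-, 3.65, 2.32 and 2.25 CPM in Casp8-/- Mlkl-/- and 11.4, 10.3 and 9.57 CPM in Casp8-/- Tnfr1-/- livers. The groups rose in the same steps as for Slfn5, with no overlap between the last 2 groups or between them and the controls. Its log2 fold change was 3.28 ± 0.300 against WT (adjusted p = 0.000338, edgeR), 2.72 ± 0.341 against Tnfr1-/- (adjusted p = 0.00334, edgeR) and 1.93 ± 0.280 against Casp8-/- Mlkl-/- livers (adjusted p = 0.00928, edgeR).

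Slfn9, whose promoter is printed beside that of Slfn8, was the most abundant member by CPM in WT livers. It measured 38.4, 45.1 and 36.0 CPM in WT, 41.8 and 45.2 CPM in Tnfr1-/-, 25.9, 53.3 and 46.0 CPM in Casp8-/- Mlkl-/- and 73.1, 62.3 and 21.7 CPM in Casp8-/- Tnfr1-/- livers. The lowest values of the series were in the 2 livers that stood apart, whereas replicates 1 and 2 of the Casp8-/- Tnfr1-/- group were above all 8 other livers. The log2 fold change of Slfn9 was 0.40 against WT (95% interval -0.49 to 1.28), 0.27 against Tnfr1-/- (-0.72 to 1.26) and 0.33 against Casp8-/- Mlkl-/- livers (-0.55 to 1.21). Without Casp8-/- Tnfr1-/- replicate 3 it was 0.77 against WT (adjusted p = 0.0883, edgeR), and without both livers that stood apart it was 0.78 (adjusted p = 4.72e-05, edgeR), 0.66 and 0.46 in the 3 comparisons, with a call in each. Whether Slfn9 rose in Casp8-/- Tnfr1-/- livers therefore rests on these 2 livers. In transcripts of Slfn8 and Slfn9, 14.6% and 11.9% of 50-base stretches also occur in another gene, mostly the pseudogene Slfn10-ps (423 and 483 stretches). Slfn8 and Slfn9 had 389 stretches in common with each other.

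Single livers decided some calls of these genes. Slfn1, Slfn2, Slfn5 and Slfn8 kept their call against WT in all 11 fits that each left out 1 liver, whereas Slfn4 lost its call without WT replicate 2 (adjusted p = 0.0529, edgeR) or WT replicate 3 (0.0567). Against Tnfr1-/- livers no member was called when either Tnfr1-/- liver was left out, where the remaining liver is assumed to vary like the other groups, and 3 were called without any 1 WT liver. Against Casp8-/- Mlkl-/- livers no member was called without replicate 2 or 3 of that group, 5 without its replicate 1, and 1 (Slfn8) without any 1 WT or Tnfr1-/- liver. In the same comparison Slfn2 lost its call without any 1 of the 3 Casp8-/- Tnfr1-/- livers (adjusted p = 0.0515, 0.0668 and 0.0673, edgeR) and with the size factors of DESeq2 (0.0566), while Slfn5 gained one without Casp8-/- Tnfr1-/- replicate 3 (adjusted p = 0.0379, edgeR). The log2 fold changes of called genes stayed positive throughout, with Slfn4 against WT ranging from 6.50 to 8.21 and Slfn8 from 3.16 to 3.54.

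The same 5 genes were above all 8 other livers in every Casp8-/- Tnfr1-/- liver, which held for 7.43% of all genes tested. For each of them an exact two-sided permutation test of 3 against 8 livers gave p = 0.00606, the smallest p that this number of livers allows. This value largely restates that ordering. It was not adjusted over members, and the 8 livers pool 3 genotypes. It gave p = 0.618 for Slfn3 and p = 0.636 for Slfn9 (exact permutation test). Without replicate 3 of that group, 6 genes were above all 8 other livers, Slfn9 being the sixth, against 10.7% of all genes tested. No member was below all 8 others in every Casp8-/- Tnfr1-/- liver, where the share over all genes was 3.32%.

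Casp8-/- Mlkl-/- livers were next compared with WT livers, from which they differ in both Casp8 and Mlkl. No group lacked Mlkl alone, so the loss of Casp8 and the loss of Mlkl cannot be told apart here. No Schlafen gene was called (edgeR), 4 had an unadjusted p under 0.05 (Slfn2, Slfn4, Slfn5 and Slfn8, all higher, as were 4.11% of all genes tested), limma-voom called 0 and DESeq2 called 2, Slfn5 and Slfn8. DESeq2 gave Slfn4 no adjusted p. Across all genes tested, edgeR called 0.00580% higher and DESeq2 0.458%. For Slfn5 the log2 fold change was 1.67 ± 0.287 (SE), with an adjusted p = 0.168 by edgeR and an adjusted p = 6.08e-05 by DESeq2. For Slfn8 it was 1.35 ± 0.288 (SE), with an adjusted p = 0.385 by edgeR and an adjusted p = 0.00641 by DESeq2. These 2 genes, and no other member, were higher in every Casp8-/- Mlkl-/- liver than in all 5 WT and Tnfr1-/- livers, as were 5.61% of all genes tested. Without the 2 livers that stood apart they were called by edgeR as well, with log2 fold changes of 1.25 and 1.09. By contrast, the values of Slfn4 (2.65) and Slfn1 (1.44) rested on Casp8-/- Mlkl-/- replicate 1, without which they were 0.45 and -0.050. Slfn2 likewise went from 0.85 to 0.20 when that liver was left out. Slfn9 (0.068, 95% interval -0.81 to 0.95) and Slfn3 (-0.058, 95% interval -0.55 to 0.44) lay near 0, and the interval of Slfn1 ran from -0.19 to 3.07.

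Tnfr1-/- livers did not differ detectably from WT livers in any Schlafen gene. No member was called by edgeR, DESeq2 or limma-voom, none had an unadjusted p under 0.05, and the share of all genes called was 0% in both directions. Log2 fold changes ran from -0.017 for Slfn2 (95% interval -0.95 to 0.91) to 0.56 for Slfn4 (-2.03 to 3.14), so that with 2 Tnfr1-/- livers a moderate difference in Slfn4 or Slfn1 (-1.73 to 1.98) would not have been seen.

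To compare the paralogs with each other, the log2 ratio of every pair of genes was taken within each liver, which removes library size, and compared between the 3 Casp8-/- Tnfr1-/- livers and the 8 others. Of 21 pairs, 17 differed at an adjusted p under 0.05 (exact two-sided permutation test over livers, Benjamini-Hochberg over the 21 pairs), and in 13 the groups did not overlap. The 21 ratios come from 7 genes and are not independent. Pairs of a called gene with Slfn3 or Slfn9 largely restate the calls above. The share over pairs of other genes is not given, so these counts have no background. The genes fell into levels that did not follow the grouping by protein length. Slfn4 gained on every other member, by 2.02 on the log2 scale over Slfn1 and by 3.92 to 6.42 over the rest. Slfn1 gained 1.90 to 4.40 on the remaining 5. Slfn2, Slfn5 and Slfn8 gained 2.03 to 2.50 on Slfn3 and Slfn9.

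The 4 pairs that did not pass the test were Slfn2 with Slfn5, Slfn2 with Slfn8, Slfn5 with Slfn8, and Slfn3 with Slfn9. For Slfn2 minus Slfn5 the difference in log2 ratio was 0.17 (adjusted p = 0.706, exact permutation test), with ratios of 0.18 to 1.43 in Casp8-/- Tnfr1-/- livers and -0.32 to 1.18 in the others. For Slfn3 minus Slfn9 it was -0.084 (adjusted p = 0.794, exact permutation test), with ratios of -3.01 to -1.43 and of -2.63 to -2.11. The ratios of each pair spread over more than their difference, so a small unequal change would not have been seen. The adjacent genes Slfn8 and Slfn9 differed by 2.42 (adjusted p = 0.00979, exact permutation test) and the adjacent genes Slfn3 and Slfn4 by -6.42 (adjusted p = 0.00979, exact permutation test), both without overlap. Leaving out 1 liver at a time gave 13 to 17 pairs, the fewest without a Casp8-/- Tnfr1-/- liver.

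**Figure D3:**
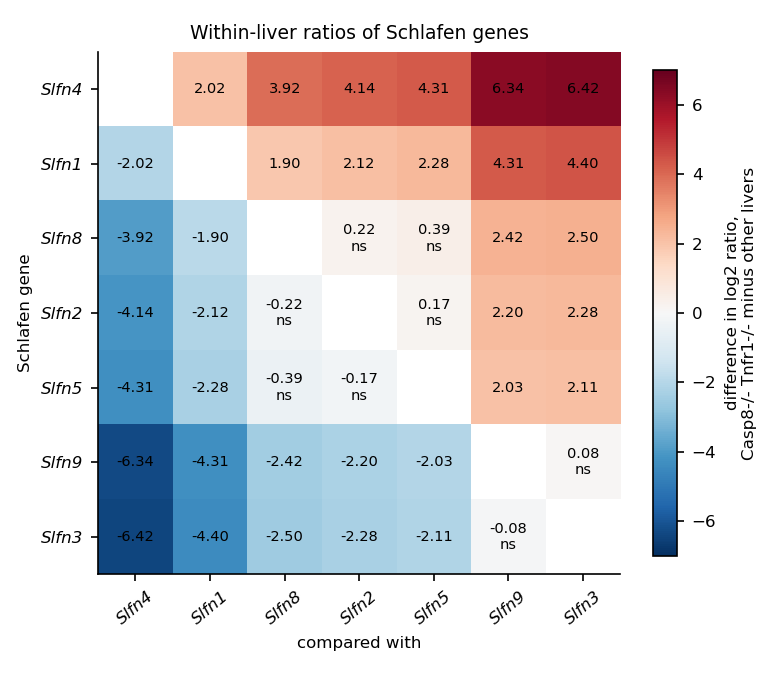
Difference in the within-liver log2 ratio of the row gene to the column gene, mean of 3 Casp8-/- Tnfr1-/- livers minus mean of 8 other livers; ns marks the 4 pairs with an adjusted p above 0.05. Red rows gained: Slfn4 gained on all others, Slfn1 on all but Slfn4, and Slfn9 and Slfn3 lost to all others but each other.

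Levels of different genes were compared as CPM per kilobase of the exonic width given in the files. In WT livers the order was Slfn2 (7.36 ± 1.11, SD, n = 3), Slfn9 (6.77 ± 0.808), Slfn3 (4.22 ± 0.126), Slfn5 (1.03 ± 0.0198), Slfn1 (0.491 ± 0.0583), Slfn4 (0.420 ± 0.0334) and Slfn8 (0.267 ± 0.0760). Neighbours in this order had separate ranges except for Slfn2 with Slfn9 and Slfn1 with Slfn4. In Casp8-/- Tnfr1-/- livers it was Slfn4 (95.3 ± 99.4 CPM per kilobase, SD, n = 3), Slfn2 (46.4 ± 10.9), Slfn1 (16.4 ± 8.997), Slfn9 (8.90 ± 4.60), Slfn5 (7.49 ± 1.65), Slfn3 (4.70 ± 0.653) and Slfn8 (2.60 ± 0.231). Here the ranges of Slfn4 and Slfn2, Slfn1 and Slfn9, and Slfn9 and Slfn5 overlapped. The width in the files is shorter for Slfn3 (1816 bases) than its exons in GENCODE M21 (3411 bases), so its place in the order is less sure than that of the others.

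The pool of Schlafen transcripts thus grew and changed its make-up. Summed over the 7 genes it was 18.6 to 21.6 CPM per kilobase in WT, 22.1 and 23.1 in Tnfr1-/-, 46.0, 27.1 and 24.1 in Casp8-/- Mlkl-/- and 117, 116 and 312 in Casp8-/- Tnfr1-/- livers. Slfn4 made up 1.94% to 2.11% of it in WT livers and 32.1%, 32.8% and 67.3% in Casp8-/- Tnfr1-/- livers. The share of Slfn1 went from 2.19% to 2.59% up to 8.58% to 10.1%. Slfn9 went from 30.4% to 35.5% down to 10.6%, 9.13% and 1.18%, and Slfn3 from 19.2% to 22.4% down to 1.42% to 4.64%, although neither was called lower in CPM. In bulk liver RNA, more cells that express a gene and more RNA per cell cannot be told apart.

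**Figure D4:**
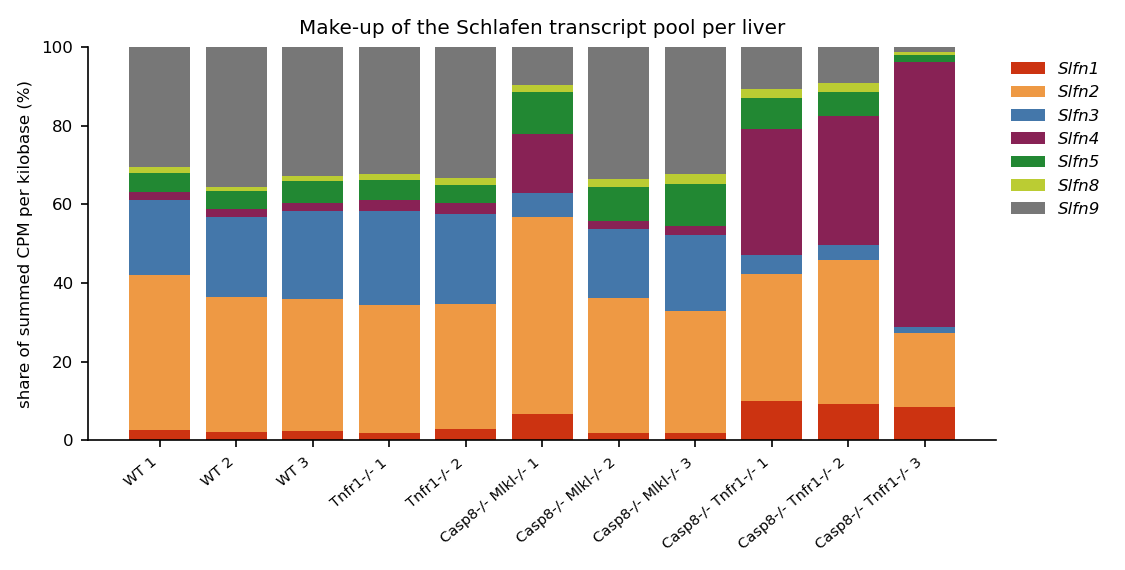
Share of each Schlafen gene in the summed CPM per kilobase of the 7 genes, 1 bar per liver. Slfn4 grows from about 2% of the pool in WT livers to 32.1%, 32.8% and 67.3% in the 3 Casp8-/- Tnfr1-/- livers, and Casp8-/- Mlkl-/- replicate 1 (14.9%) differs from its group.

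Neutrophil markers were higher in Casp8-/- Tnfr1-/- livers, whereas macrophage markers were mixed. The 12 neutrophil markers summed to 1075 to 1549 CPM in WT, 1289 and 1338 CPM in Tnfr1-/-, 3494, 1236 and 1357 CPM in Casp8-/- Mlkl-/- and 5233, 6420 and 15576 CPM in Casp8-/- Tnfr1-/- livers. As for Slfn1, Slfn2 and Slfn4, Casp8-/- Tnfr1-/- replicate 3 was the highest liver and Casp8-/- Mlkl-/- replicate 1 the highest outside that group. Slfn5 (36.1 CPM) and Slfn8 (9.57 CPM) were instead lowest in replicate 3 among Casp8-/- Tnfr1-/- livers. Outside that group they too were highest in Casp8-/- Mlkl-/- replicate 1 (29.7 and 3.65 CPM). Both were above all WT and Tnfr1-/- livers in Casp8-/- Mlkl-/- replicates 2 and 3, where the neutrophil sums lay within the WT range. Of the neutrophil markers, 7 of 12 were called higher against WT by edgeR, 8 by DESeq2 and 5 by limma-voom. Against Tnfr1-/- livers edgeR called 1, DESeq2 8 and limma-voom 2, with 9 at an unadjusted p under 0.05 in edgeR. Against Casp8-/- Mlkl-/- livers 0 were called by edgeR, with 9 at an unadjusted p under 0.05, 5 called by DESeq2 and 2 by limma-voom. The 14 macrophage markers summed to 574 to 804 CPM in WT, 714 and 751 CPM in Tnfr1-/-, 1950, 822 and 872 CPM in Casp8-/- Mlkl-/- and 1024, 1101 and 1123 CPM in Casp8-/- Tnfr1-/- livers, with 2 called higher and 2 lower against WT (edgeR). Against Casp8-/- Mlkl-/- livers 3 of 14 were called lower and 0 higher by edgeR, with 0 higher by DESeq2 and limma-voom as well, and against Tnfr1-/- livers 0 were called by edgeR, with 7 at an unadjusted p under 0.05, 4 called by DESeq2 (2 in each direction) and 1 by limma-voom. The median log2 fold change of the macrophage markers was -0.20, -0.30 and -0.99 against WT, Tnfr1-/- and Casp8-/- Mlkl-/- livers, and that of the neutrophil markers 3.29, 3.30 and 2.24. By summed level of macrophage markers, Casp8-/- Mlkl-/- replicate 1 was the highest liver, unlike for any Schlafen gene. T and NK cell markers, of the other lineage in which the family is known, summed to 14.5 to 21.1 CPM in WT livers. Sums were 16.5 and 17.4 CPM in Tnfr1-/- and 34.0, 15.9 and 18.0 CPM in Casp8-/- Mlkl-/- livers. In Casp8-/- Tnfr1-/- livers they were 26.1, 25.8 and 15.8 CPM. Of these 10 markers, only Cd3e was at 0 in every liver of a genotype, namely in Tnfr1-/- and in Casp8-/- Tnfr1-/- livers. No neutrophil marker was at 0 in any genotype. The share of all genes at an unadjusted p under 0.05 is not given for these comparisons, so the counts at that threshold have no background. The part of these cells in the Schlafen changes was not tested.

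Genes whose pattern over the 11 livers was most like that of each member were found by the mean absolute difference of log2 CPM, both genes centred on their median. For Slfn1 they were Lcn2 (0.24), a granule protein of neutrophils, Vnn3 (0.33) and Cd177 (0.34), a neutrophil surface protein. For Slfn4 they were Saa3 (0.51), Lrg1 (0.61) and Serpina3n (0.61), all induced in the acute phase response. The closest family member was farther away than these, at 0.81 (Slfn2) from Slfn1 and at 0.84 (Slfn1) from Slfn4. For Slfn2 they were Fcgr4 (0.14), a myeloid Fc receptor, I830127L07Rik (0.15) and Cd52 (0.16), a leukocyte surface protein.

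The long genes had other neighbours in pattern. Both Slfn5 and Slfn8 had Parp14 as the nearest gene (0.26 and 0.20), an interferon-induced ADP-ribosyltransferase. They were followed by C3ar1 (0.27) and Gbp7 (0.28) for Slfn5, and by Parp9 (0.21) and Ifih1 (0.22), a sensor of double-stranded RNA, for Slfn8. Slfn5 and Slfn8 were also each other's nearest family member (0.36). Slfn9 was nearest to Trim71 (0.14), Aen (0.15) and Cnnm4 (0.16), and Slfn3 to Spag1 (0.090), Ubn2 (0.092) and Zfp182 (0.094). These distances describe 11 livers in 4 genotypes and carry no test.

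Interferon signalling genes were read beside the family because several Schlafen genes respond to interferon. Of 16 genes for receptors, kinases and factors, 7 were called higher against WT, 6 against Tnfr1-/- and 5 against Casp8-/- Mlkl-/- livers, and 0 lower. Without both livers that stood apart, 14, 12 and 12 were called in either direction, and the share of all genes called in that fit is not given. The transcription factor genes Stat2 (2.13), Irf9 (1.88), Irf7 (4.67) and Irf1 (1.89) were among the 7 against WT, given as log2 fold changes with adjusted p of 0.00966 or less (edgeR). Of these 4, all but Irf1 (1.31, adjusted p = 0.0826, edgeR) were also called against Casp8-/- Mlkl-/- livers. The median log2 fold change of the 16 genes was 0.72, 0.79 and 0.52 in the 3 comparisons, below the medians of the Schlafen genes. None of 21 interferon ligand genes passed the filter, and the highest count of any in 1 liver was 3 (Ifng), so their reads were too few to compare the genotypes at this depth.

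The other Schlafen loci and the genes around the cluster were read in the same way. Slfn10-ps (ENSMUSG00000072621), a transcribed pseudogene between Slfn8 and Slfn2, was at 2, 3 and 1 counts in WT, 8 and 7 in Tnfr1-/-, 2, 10 and 3 in Casp8-/- Mlkl-/- and 38, 25 and 36 counts in Casp8-/- Tnfr1-/- livers. It passed the filter only through the last group, and 19.7% of its 50-base stretches also occur in another gene, mostly Slfn9. Its values are therefore given as counts alone, with no test. Slfn14 (ENSMUSG00000082101), a long Schlafen with ribonuclease activity known from red cell precursors and platelets, measured 179 to 195 CPM in WT, 193 and 217 CPM in Tnfr1-/-, 136 to 180 CPM in Casp8-/- Mlkl-/- and 136 to 345 CPM in Casp8-/- Tnfr1-/- livers. It did not pass the test in the main fit, with a log2 fold change of 0.20 against WT (95% interval -0.48 to 0.87) that turned to -0.33 without Casp8-/- Tnfr1-/- replicate 3. Without both livers that stood apart, it was called lower against WT (-0.32, adjusted p = 0.0278, edgeR). The same held against Tnfr1-/- livers (-0.46, adjusted p = 0.00740, edgeR). The share of all genes called in that fit is not given. Slfnl1 on chromosome 4 had at most 2 counts in any liver.

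Within 200000 bases on either side of the cluster lay 15 protein coding genes outside the family, of which 14 were tested. By edgeR 0 of them were called in any comparison, with 3, 3 and 1 at an unadjusted p under 0.05 against WT, Tnfr1-/- and Casp8-/- Mlkl-/- livers. The share of all genes at that unadjusted p is not given for these comparisons. DESeq2 called 1700020L24Rik higher in all 3 and limma-voom called none. These counts depended on the 2 livers that stood apart, since edgeR called 2, 1 and 1 neighbours without Casp8-/- Tnfr1-/- replicate 3, 1, 0 and 1 without Casp8-/- Mlkl-/- replicate 1, and 3, 3 and 1 without both. The flanking gene Unc45b, a chaperone gene of striated muscle, had a log2 fold change of 1.73 against WT (adjusted p = 0.181, edgeR), with levels of 2.62 to 22.7 CPM in Casp8-/- Tnfr1-/- livers. The median log2 fold change of the 14 genes was 0.14, 0.091 and 0.16 in the 3 comparisons. Inside the cluster, the uncalled Slfn9 lies between the called Slfn5 and Slfn8. The uncalled Slfn3 lies at the end of the members, beyond Slfn4, and is followed by Slfn14, which was not called in the main fit either.

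**Figure D5:**
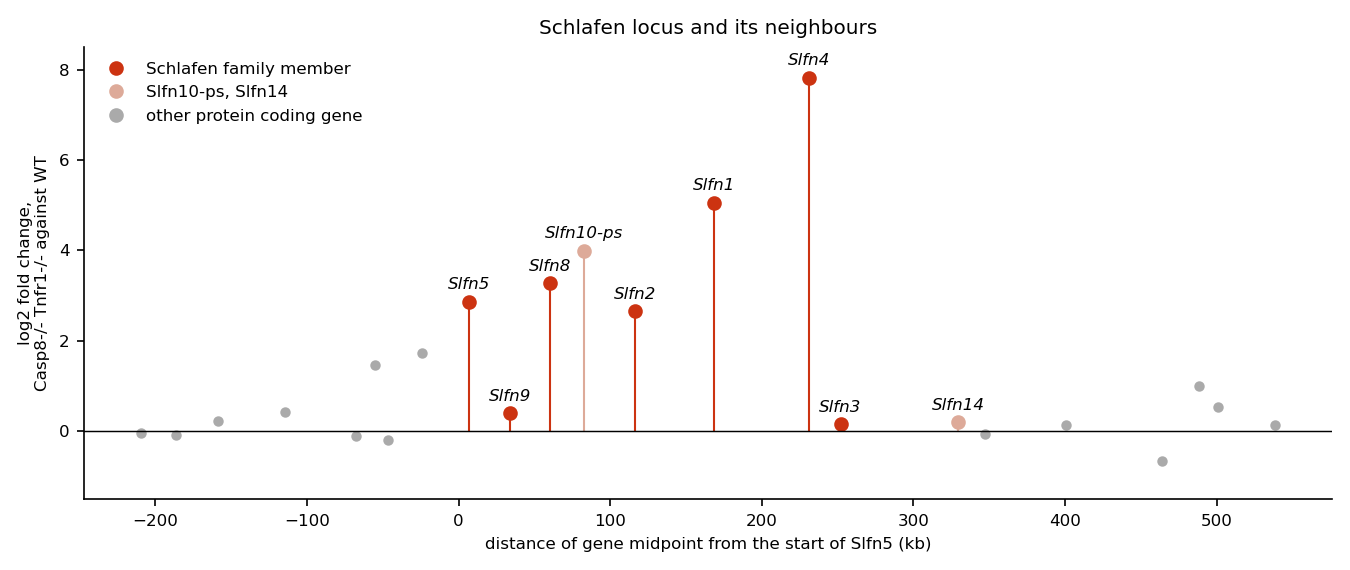
Log2 fold change (edgeR) in Casp8-/- Tnfr1-/- against WT livers of Schlafen genes (red), Slfn10-ps and Slfn14 (pale red) and other protein coding genes tested (gray), by the distance of the gene midpoint from the start of Slfn5 in kilobases. The 14 neighbours lie between -0.67 and 1.73, and within the cluster Slfn9 (0.40) and Slfn3 (0.16) lie below the other 5 members at 2.66 to 7.82. Slfn10-ps passed the filter only through the Casp8-/- Tnfr1-/- livers, so its point is not read as a test.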

How the data were processed

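RNA from 11 fetal livers was sequenced by the study as single-end 50-base reads. The authors aligned reads to GRCm38 (mm10) with GSNAP, per the submitters' processing notes, and deposited, per liver and Ensembl gene, a whole-number count of reads on exons, the exonic width and an RPKM value. The annotation release and strand use are not given in the sources used here, and the labels and the methods name different library kits. The deposited counts were used for all tests and the deposited RPKM values only to check the files. Groups came from the sample labels. Nothing says whether livers of a genotype came from separate litters, so p-values measure the spread between these livers.

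Genes passed edgeR 4.0.16 filterByExpr (minimum count 10), were scaled by TMM and fitted by the quasi-likelihood test over all 4 genotypes (R 4.3.3; 17243 genes, adjusted p under 0.05). CPM are TMM-scaled, and log2 CPM used a prior count of 2. DESeq2 1.42.0 and limma 3.58.1 were alternatives. Single values and ratios were compared by exact permutation over livers. Scripts were tested on simulated counts. Shared 50-base stretches come from GENCODE M21 transcripts (52403 of 52636 identifiers matched), and promoters from RefSeq (GRCm38.p6), with an entry for each of the 7 genes and none for Slfn10-ps. Named were the 7 genes, other Schlafen loci, neighbours, an interferon list, the 3 genes nearest in pattern to each member and the targeted genes. The members and lists were chosen with earlier results of these data known. With 21 to 37 counts per WT liver, Slfn1 and Slfn8 are the least precisely counted members.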

Additional observations from a re-analysis of the deposited data

How the results depend on the processing

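Against WT livers 5 members were called with DESeq2's size factors, without a filter on low counts, by limma-voom and with only the 2 genotypes compared, 4 without WT replicate 2 or 3, and 4 by DESeq2, which gave Slfn4 no adjusted p. Leaving out 1 liver at a time gave 0 to 5 members against Tnfr1-/- livers and 0 to 5 against Casp8-/- Mlkl-/- livers, and fewer livers in the fit leave fewer degrees of freedom. With only the 2 genotypes compared, 2 and 0 members were called in these comparisons, again with fewer livers. Against Casp8-/- Mlkl-/- livers, 5 were called without a filter on low counts, 5 by limma-voom and 6 without both livers that stood apart; against WT, Casp8-/- Mlkl-/- livers had 2 called members without both livers and 2 by DESeq2. For these the cause was not tested. The share of all genes called is given for the main fit and, in Casp8-/- Mlkl-/- against WT livers, for DESeq2. Counts from all other fits have no such share beside them and cannot be read against it. Same-numbered livers deviated with correlations of -0.297 to 0.275, over 0.1 in 5 of 15 pairs. With so few livers per genotype, these correlations cannot show or exclude pairing by number. With the replicate number as a block, 3 members were called against Tnfr1-/- and 1 against Casp8-/- Mlkl-/- livers, and still 5 against WT. Under the block, Slfn5 (-0.023) and Slfn9 (-0.021) in Tnfr1-/- against WT, and Slfn14 (-0.11) in Casp8-/- Tnfr1-/- against Tnfr1-/-, changed sign, none of them called. Without both livers that stood apart, Slfn14 was -0.32 against WT, -0.46 against Tnfr1-/- and -0.061 against Casp8-/- Mlkl-/- livers. It was called lower against WT (adjusted p = 0.0278, edgeR) and against Tnfr1-/- livers (adjusted p = 0.00740, edgeR). In that fit, Slfn1 was -0.042 and Slfn3 0.16 in Casp8-/- Mlkl-/- against WT livers. By limma-voom Slfn14 was -0.053 against Tnfr1-/- livers. Uncalled values also crossed 0 when single livers were left out: Slfn14 ranged from -0.33 to 0.45, -0.47 to 0.30 and -0.14 to 0.64 in the 3 comparisons, Slfn9 from -0.045 to 0.64 against Tnfr1-/-, in Casp8-/- Mlkl-/- against WT Slfn1 from -0.050 to 1.86, Slfn3 from -0.19 to 0.15 and Slfn9 from -0.15 to 0.32, and in Tnfr1-/- against WT Slfn1 from -0.26 to 0.45 and Slfn2 from -0.12 to 0.10. With lengths over unshared stretches, 3 members changed place in the order per kilobase, all in Casp8-/- Mlkl-/- livers, where Slfn3 fell behind Slfn5 and Slfn4.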
